A study of Mus musculus with 16 samples.

Results

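A group of 7 genes from the nutrient-sensing machinery at the lysosome was followed in neural stem cell (NSC) cultures that lacked or kept Tsc2: the transcription factor genes Mitf, Tfeb and Tfe3, the folliculin gene Flcn, the genes Fnip1 and Fnip2 for its binding partners, and Gpnmb, a target gene of the factors. They were picked by symbol from the first column of the total RNA and the polyribosomal RNA tables, and 7 of 7 were found among 24946 genes. All 7 passed the filter on low values (a mean of at least 10 in a table) in both tables.

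MITF, TFEB and TFE3 are related basic helix-loop-helix factors that bind E-boxes in the promoters of lysosome and autophagy genes. The kinase complex mTORC1, which tuberin, the Tsc2 product, holds back, phosphorylates TFEB and TFE3 and keeps them in the cytoplasm. Folliculin works with FNIP1 or FNIP2 on the lysosome surface as the GTPase-activating protein for RagC and RagD, and it is through these Rag GTPases that TFEB and TFE3 are brought to mTORC1. GPNMB is a membrane glycoprotein of lysosomes and melanosomes, known from melanocytes, osteoclasts and lipid-laden phagocytes.

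The cultures were made from tamoxifen-injected mouse pups and derive from the V-SVZ (ventricular-subventricular zone), where stem cells line the lateral ventricle. In the Tsc2 mut/mut group both copies of the conditional allele Tsc2tm1.1Mjg were recombined by Nestin-CRE-ERT2, a Cre driven by the Nestin promoter of neural progenitors. The Tsc2 wt/wt group had intact Tsc2, a Rosa26 tdTomato reporter marked recombined cells, and the sources used here leave unclear whether wild-type pups carried Cre. Each of 4 mutant and 4 control cultures, grown as monolayers with EGF and FGF, was sequenced both as total RNA and as polyribosomal RNA, the polyribosomal sample being taken from the heavy 3 mL of a 17.5% to 50% sucrose gradient after 15 min of cycloheximide. This makes 16 libraries in 4 groups of 4. Culture numbers name cultures within a genotype and do not pair them across genotypes, and the labels do not say which animals or litters they came from. The paper counts 4 cultures per genotype for its polyribosome profiling and 4 mice per genotype for the gene ontology analysis of it. It does not say which culture came from which mouse. P-values therefore rest on the spread among cultures, which may be partly technical.

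Column totals of the normalised values were 65.6 to 73.7 M in total RNA and 87.4 to 100.5 M in polyribosomal RNA, and the smallest values put the depth at about 24.7 to 138.9 M and 50.9 to 267.6 M reads. All 13 NSC markers listed (Nes, Vim, Sox2, Olig2 and others) were above 0 in every library. Tsc2 itself, read over its whole length, did not pass the test in total RNA (log2 change -0.10 ± 0.10 SE, limma adjusted p = 0.422) and was lower in mutant polyribosomal RNA (-0.49 ± 0.15, limma adjusted p = 0.0389), a call that was lost in 12 of 19 alternatives (6 of the 8 that leave out 1 culture). Neither value checks the deleted part. The libraries also differed in features other than genotype. Summed over 4 Y-linked genes, total RNA held 4775, 48.6, 16.4 and 6.57 in mutant cultures 1 to 4, against 4203, 4967, 5802 and 258 in control cultures 1 to 4, so mutant culture 1 sat with control cultures 1 to 3. Summed over 18 microglia and macrophage genes, total RNA held 7917, 25526, 7506 and 14855 in mutant cultures, against 4935, 6374, 3660 and 5915 in control cultures. All 7 tested myelin genes of the oligodendrocyte list were higher in mutant cultures in both tables. Of all genes, 19.7% were higher in total and 11.7% in polyribosomal RNA. These are bulk RNA values, in which a change in the number of cells of a type and a change in RNA per cell cannot be told apart.

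On GRCm38, the annotation places Mitf on chromosome 6 (97807052 to 98021349, plus strand), Tfeb on chromosome 17 (47737030 to 47792419, plus), Tfe3 on chromosome X (7762560 to 7775202, plus) and Flcn on chromosome 11 (59791408 to 59810016, minus). Fnip1 lies on chromosome 11 (54438199 to 54518235, plus), Fnip2 on chromosome 3 (79455974 to 79567796, minus) and Gpnmb on chromosome 6 (49036546 to 49070929, plus). The library kit does not mark strand. Of the annotated genes that overlap a member on the opposite strand, Gm17359 inside the Fnip2 span was the one with a row in the tables, and its group means were at most 0.133.

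RefSeq promoter windows (GRCm38.p6, 250 bases before to 50 bases after a start site) were on hand for all 7 genes, 12 windows in all. The E-box CACGTG, the core to which MiT/TFE factors bind, occurred in 1 of the 12 windows, that of Fnip1, at 75 bases before the start site, and in 7.15% of all 32851 windows. The E-box TCATGTG (both strands searched) was in none of the 12 and in 3.77% of all windows, and the palindromic CLEAR element, a longer form that contains the first, was in none and in 0.326%. The 150 bases before the start site are shown for Fnip1, the member with the match (capitals mark CACGTG), and for Gpnmb, the member with the largest change and no match in its window. Fnip1 is read from chr11:54438029-54438178 and Gpnmb from chr6:49036368-49036517, both on the plus strand.
Fnip1: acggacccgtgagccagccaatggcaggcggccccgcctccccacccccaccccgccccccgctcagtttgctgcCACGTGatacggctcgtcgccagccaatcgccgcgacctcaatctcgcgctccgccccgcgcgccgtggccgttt
Gpnmb: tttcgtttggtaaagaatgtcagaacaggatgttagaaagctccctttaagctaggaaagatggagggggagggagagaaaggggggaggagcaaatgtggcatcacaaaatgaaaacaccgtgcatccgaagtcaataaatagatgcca
The Fnip1 stretch is 73.3% G and C and the Gpnmb stretch 44.7%. A match is a description of the letters and does not show that a factor binds there.

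The first comparison asked how loss of Tsc2 changed the abundance of these transcripts. In total RNA, 6 of the 7 genes were higher in mutant cultures past the threshold (limma on log2(value + 1), adjusted p under 0.05), and Fnip2 was the exception. Over all 14967 genes tested, 40.3% passed, with 19.7% of the tested genes higher and 20.7% lower in mutant cultures. All mutant cultures were above all control cultures for 4 of the 7 (Tfe3, Flcn, Fnip1 and Gpnmb), a pattern seen for 17.8% of tested genes. The sizes ran from 0.25 on the log2 scale for Tfe3 to 2.51 for Gpnmb.

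**Figure D1:**
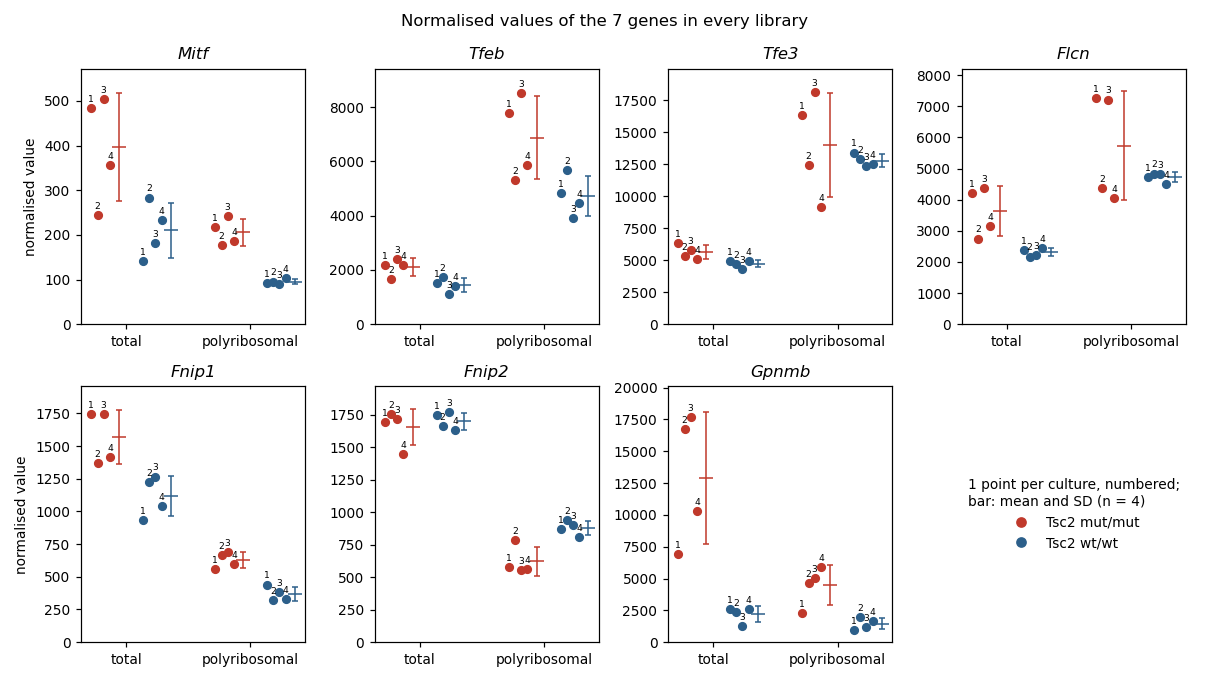
Normalised values of the 7 genes (vertical axes, each from 0) in total and polyribosomal RNA, 1 numbered point per culture, Tsc2 mut/mut left of Tsc2 wt/wt, with the mean and SD of 4 cultures as a bar. Gpnmb was at 6914 or above in every mutant total RNA library and at 2611 or below in every control one, while the genotypes overlapped for Fnip2 in total RNA and did not in polyribosomal RNA.

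Among the factors, Mitf, the least abundant, held normalised values of 484, 244, 504 and 356 in mutant cultures 1 to 4, against 141, 284, 182 and 233 in control cultures 1 to 4. Mutant cultures 1, 3 and 4 stood above all controls and mutant culture 2 fell within their range. Its log2 change was 0.91 ± 0.27 (SE, limma adjusted p = 0.0247), and the call was lost without mutant culture 1 or 3 or control culture 1 or 3 (limma adjusted p = 0.0570 to 0.0718). Melanocyte genes, which MITF drives in pigment cells, were low: the 8 listed summed to 68.7 to 152 in mutant and 38.2 to 53.9 in control total RNA. Pmel, a melanosome matrix gene and the 1 of the 8 that passed the filter, rose (log2 change 0.86 ± 0.26, limma adjusted p = 0.0234), with 51.3 to 82.1 in mutant and 23.7 to 40.7 in control cultures. Dct, a melanin synthesis gene, was at 2.73 to 15.6 in mutant and 0 to 1.70 in control cultures. Of the other pigment cell genes, Trpm1 was at 2.50 to 24.3 in mutant and 0 to 2.96 in control cultures and Tyrp1 at 0 to 10.7 in mutant and 0 to 1.02 in control cultures, all 3 genes being highest in mutant culture 3. Mlana was at 0 to 1.16 in mutant and 0.534 to 3.01 in control cultures. Tyr was at 1.09 to 6.90 in mutant and 1.03 to 5.99 in control cultures, with means of 3.38 and 3.64. Slc45a2 was at 2.05 to 8.35 in mutant and 0 to 4.05 in control cultures, and Oca2 at 2.79 to 5.43 and 0 to 1.60. The part of pigment cells in the Mitf values was not tested.

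Tfeb, the factor gene best known for lysosome and autophagy control, was at 2197, 1662, 2408 and 2178 in mutant total RNA, against 1514, 1753, 1113 and 1414 in controls. Mutant culture 2 was again the low one and fell below control culture 2. The log2 change was 0.55 ± 0.15 (limma adjusted p = 0.0189, or 0.0518 without mutant culture 1).

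Tfe3, the X-linked factor gene, was at 6325, 5304, 5802 and 5107 in mutant cultures and 4955, 4730, 4335 and 4902 in controls. The groups did not overlap but lay close together. The change was 0.25 ± 0.09 on the log2 scale (limma adjusted p = 0.0460), and it passed the threshold no longer when mutant culture 1 or 3 or control culture 2, 3 or 4 was left out (limma adjusted p = 0.0724 to 0.134). Mutant culture 1, whose Y-linked level was like that of control cultures 1 to 3, had the highest Tfe3 value of all 8.

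Tfec, the fourth gene of the family, was scarce. It was at 24.4, 49.0, 26.0 and 44.7 in mutant total RNA, against 9.16 to 12.8 in controls, a log2 change of 1.57 ± 0.31 (limma adjusted p = 0.00510). The 2 highest mutant cultures, 2 and 4, were those with the most microglial RNA. Without them the change was 1.14 (limma adjusted p = 0.0305).

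Flcn, which encodes folliculin, was at 4222, 2753, 4385 and 3146 in mutant total RNA and at 2390, 2176, 2224 and 2452 in control total RNA. All mutant cultures were above all controls, with cultures 1 and 3 farther up than 2 and 4, and controls differed little among themselves. The log2 change was 0.62 ± 0.14 (limma adjusted p = 0.00894) and passed whichever single culture was left out.

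Fnip1, the first folliculin partner, was at 1743, 1369, 1745 and 1416 in mutant cultures and 936, 1225, 1267 and 1040 in controls. The groups again did not overlap, and mutant cultures 1 and 3 were again the higher ones. The log2 change was 0.49 ± 0.13 (limma adjusted p = 0.0152), past the threshold without any single culture.

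Fnip2, the alternative partner, was flat. Mutant cultures held 1693, 1756, 1716 and 1448 and controls 1746, 1662, 1768 and 1629, so that 3 mutant cultures lay within the control range and mutant culture 4 below it. Its log2 change was -0.04 ± 0.09 (limma adjusted p = 0.708).

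Gpnmb was at 6914, 16736, 17712 and 10304 in mutant total RNA, against 2611, 2343, 1257 and 2589 in controls. Every mutant culture was above every control culture by a wide margin, and the means of 12916 ± 5178 and 2200 ± 640 (SD, n = 4 each) stood 5.87-fold apart. The log2 change was 2.51 ± 0.32 (limma adjusted p = 0.00254), and it stayed between 2.26 and 2.78 with any 1 culture left out.

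Since phagocytes make Gpnmb, its values were set beside the microglial list. Of 17 tested genes on that list, 6 (35.3%) were higher in mutant total RNA, against 19.7% of all genes, and none was lower. C1qa, a complement gene of microglia, was at 806, 3750, 344 and 2352 in mutant cultures, against 856, 950, 570 and 961 in controls, and Siglech, a microglial lectin gene, was at 0 in all 8 polyribosomal libraries and all control total RNA libraries. The highest Gpnmb value, in mutant culture 3, came with a microglial sum of 7506, the lowest of the mutant cultures, while mutant culture 2 had 25526 and less Gpnmb. Mutant culture 3 was also the highest in Cd14, the most abundant gene of that list, at 3767, against 1076 in the highest control, and the mean log2 level of the lipid-laden phagocyte genes was 10.6 there, second to 10.8 in mutant culture 2 and above the 9.06 to 9.53 of controls. With the mean log2 level of the list as a covariate the Gpnmb change was 2.22 (limma adjusted p = 0.00684), and without mutant cultures 2 and 4, the richest in microglial RNA, it was 2.39 (limma adjusted p = 0.00518). The other 5 genes past the threshold in total RNA also passed under both of these settings. For these 5, mutant cultures 2 and 4 held the lowest mutant values in total RNA. A larger change without those cultures was therefore fixed in advance. Choroid plexus genes summed to 1455, 1688, 3773 and 1658 in mutant total RNA, against 1193, 1283, 1030.5 and 1283 in controls, with culture 3 again the highest. Otx2 made up most of the control sums, at 929 to 1197, and was at 1139 to 1515.5 in mutant cultures. Ttr was at 144, 8.74, 2281 and 267 in mutant cultures, against 3.03 to 5.95 in controls. Clic6 was at 23.6, 3.63, 80.6 and 21.1, against 3.64 to 7.48, and Aqp1 at 94.2 to 167, against 65.4 to 116. The part of choroid plexus genes in the Gpnmb values was not tested.

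**Figure D2:**
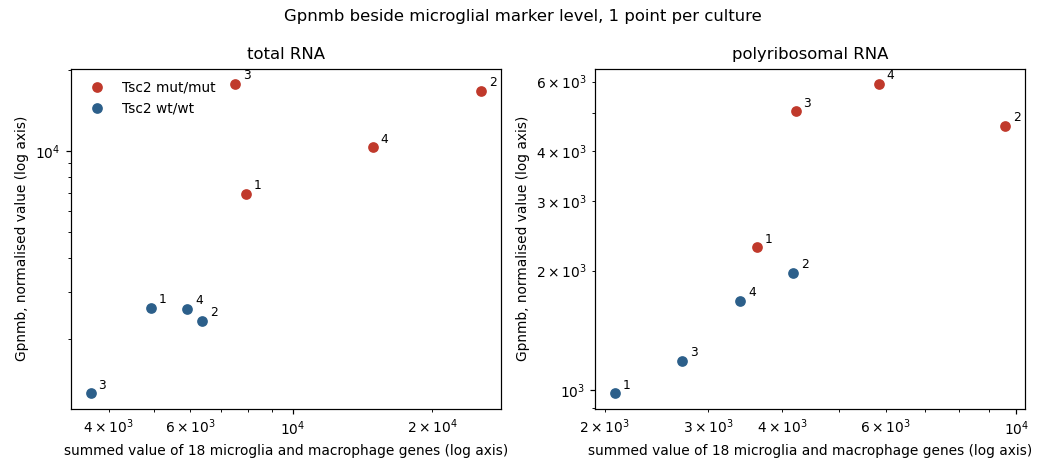
Normalised value of Gpnmb (vertical, log axis) against the summed value of 18 microglia and macrophage genes (horizontal, log axis), 1 numbered point per culture, for total RNA and polyribosomal RNA. Mutant culture 3 paired the highest Gpnmb value in total RNA, 17712, with a microglial sum of 7506, against 6374 in control culture 2, the highest control.

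The Y-linked level touched more of the calls. With it in the model, Gpnmb alone of the 7 passed in total RNA (log2 change 1.99, limma adjusted p = 0.0431), while the changes of Mitf (0.99), Tfeb (0.55), Tfe3 (0.34), Flcn (0.72) and Fnip1 (0.62) had limma adjusted p from 0.0554 to 0.114. The calls over all genes fell to 1063 in that fit. Compared with the 3 controls of like Y-linked level, mutant culture 1 was higher for Mitf (484 against 141 to 284), Tfeb (2197 against 1113 to 1753), Tfe3 (6325 against 4335 to 4955), Flcn (4222 against 2176 to 2390), Fnip1 (1743 against 936 to 1267) and Gpnmb (6914 against 1257 to 2611). Being 1 culture, it allows no test.

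The second comparison asked which of these transcripts differed among mRNA loaded with ribosomes. In polyribosomal RNA 4 of the 7 genes were higher in mutant cultures (Mitf, Tfeb, Fnip1 and Gpnmb) and 1, Fnip2, was lower. Of all 14412 genes tested, 23.6% passed, 11.7% higher and 11.9% lower. All mutant cultures were above all controls for Mitf, Fnip1 and Gpnmb, as for 13.3% of tested genes, and all were below for Fnip2, as for 14.6%.

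Mitf was at 218, 177, 242 and 185 in mutant polyribosomal RNA, against 91.3, 95.5, 90.3 and 103 in controls. The controls were nearly level and every mutant culture was well above them. The log2 change was 1.10 ± 0.18 (limma adjusted p = 0.00365) and ranged from 1.02 to 1.17 with single cultures left out.

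Tfeb was at 7777, 5315, 8516 and 5857 in mutant cultures and at 4842, 5673, 3910 and 4477 in controls. Mutant cultures 1 and 3 were far above the controls, whereas culture 2 lay below control culture 2. The change of 0.52 ± 0.17 (limma adjusted p = 0.0435) was not past the threshold without mutant culture 1 or 3 or control culture 1, 3 or 4 (limma adjusted p = 0.0787 to 0.123).

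Tfe3 was at 16307, 12429, 18147 and 9118 in mutant polyribosomal RNA, against 13405, 12903, 12349 and 12481 in controls. Mutant cultures 1 and 3 were above every control and culture 4 below every control, so the mean change was small (0.08 ± 0.18, limma adjusted p = 0.771). Leaving out mutant cultures 2 and 4 gave 0.43 (limma adjusted p = 0.0112). These held the lowest mutant values, so a larger change was fixed in advance, and mutant cultures 1 and 3 alone remained.

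Flcn showed the same split. Mutant cultures held 7267, 4387, 7217 and 4044, against 4732, 4840, 4826 and 4512 in the tightly grouped controls. Cultures 1 and 3 were above and cultures 2 and 4 below all controls, and the change was 0.22 ± 0.19 (limma adjusted p = 0.404). Leaving out cultures 2 and 4 gave 0.62 (limma adjusted p = 0.00224). These held the lowest mutant values, so a larger change was fixed in advance, and mutant cultures 1 and 3 alone remained. The SD over cultures was 30.6% of the mean in mutant and 3.20% in control polyribosomal RNA.

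The folliculin partners moved apart in this fraction. Fnip1 was at 562, 666, 690 and 599 in mutant cultures and 441, 321, 386 and 329 in controls, without overlap, and its change was 0.78 ± 0.16 (limma adjusted p = 0.00758). Fnip2 was at 580, 786, 554 and 565 in mutant cultures and 871, 937, 898 and 812 in controls, also without overlap, and its change was -0.51 ± 0.15 (limma adjusted p = 0.0316). The Fnip2 call was narrow. It was lost without mutant culture 1, 3 or 4 or control culture 1, 2 or 3 (limma adjusted p = 0.0536 to 0.0942), and with scaling to library totals (-0.39, limma adjusted p = 0.0922) or upper quartiles (-0.44, limma adjusted p = 0.0566).

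Gpnmb was at 2292, 4640, 5054 and 5916 in mutant polyribosomal RNA and 980, 1977, 1184 and 1677 in control polyribosomal RNA. The lowest mutant value, in culture 1, was not far above the highest control value. The log2 change was 1.59 ± 0.30 (limma adjusted p = 0.00622). Of the microglial list 1 of 14 tested genes was higher in this fraction, against 11.7% of all genes. The Gpnmb change was 1.54 with the list as a covariate (limma adjusted p = 0.00248). When the Y-linked level was a covariate, it was 0.96 (limma adjusted p = 0.0970), and in that fit 30 genes in all and none of the 7 passed (limma adjusted p under 0.05; 3103 genes had an unadjusted p under 0.05).

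**Figure D3:**
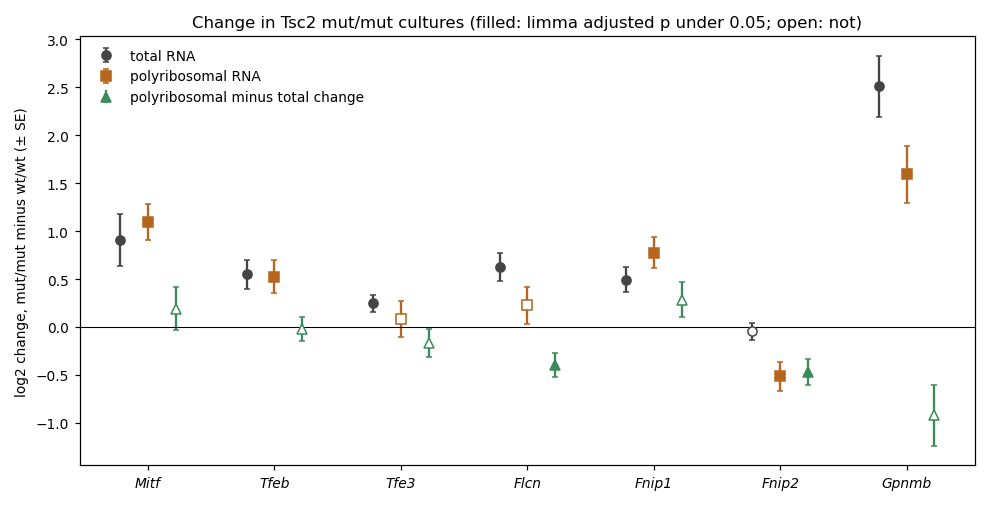
Log2 change of each gene, Tsc2 mut/mut minus Tsc2 wt/wt (vertical, ± SE), in total RNA, in polyribosomal RNA and as the difference of these changes, with filled symbols where the limma adjusted p was under 0.05. Gpnmb had 2.51 in total and 1.59 in polyribosomal RNA, and Fnip2 had -0.04 and -0.51.

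The third comparison, translational efficiency, asked whether the share of a transcript on polyribosomes changed beyond its abundance. It was tested as the difference between the polyribosomal and the total change in 1 fit with culture as a block. Flcn (-0.40 ± 0.13, limma adjusted p = 0.0457) and Fnip2 (-0.47 ± 0.14, limma adjusted p = 0.0345) were lower in mutant cultures, 2 of the 7 genes, against 13.0% of all 14333 tested genes in either direction and 7.89% downward. Gpnmb had a difference of -0.92 ± 0.32 that did not pass (limma adjusted p = 0.0883). On the microglial list 6 of 14 genes were lower in efficiency and none higher, with a median difference of -0.85, and their part in the Gpnmb value was not tested. Mitf (0.19 ± 0.22), Tfeb (-0.02 ± 0.12), Tfe3 (-0.17 ± 0.15) and Fnip1 (0.28 ± 0.18) did not pass either, with limma adjusted p of 0.307 to 0.917.

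Both efficiency calls turned on single cultures. Of the 8 fits with a culture left out, Flcn passed in the one without control culture 1 and had limma adjusted p of 0.0504 to 0.153 in the others, and without mutant cultures 2 and 4 its difference was -0.28 (limma adjusted p = 0.149). Fnip2 lost its call without mutant culture 1 or 3 or control culture 2, 3 or 4 (limma adjusted p = 0.0594 to 0.124). Gpnmb passed without mutant culture 4 (-1.16, limma adjusted p = 0.0264) or control culture 1 (-1.19, limma adjusted p = 0.0123), and Fnip1 passed without control culture 1 (0.46, limma adjusted p = 0.0349). With the microglial level as a covariate the differences were -0.43 for Flcn, -0.27 for Fnip2 and -0.17 for Gpnmb, and no gene of the 14333 passed (limma, 2121 with an unadjusted p under 0.05).

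The ratio of polyribosomal to total value in each culture, on the log2 scale and relative to the median gene of that culture, shows where each gene stood. The tables were normalised separately, so the ratio ranks genes and is not an absolute share. Tfeb was among the genes with the highest ratios, 1.90 ± 0.17 above the median gene in mutant and 1.90 ± 0.06 in control cultures (SD, n = 4 each), which put it at the 98.9 and 99.4 percentiles. Tfe3 followed, at 1.48 ± 0.33 in mutant and 1.62 ± 0.06 in control cultures. Control cultures were closely grouped for both and mutant cultures ranged wider, Tfe3 from 1.08 in culture 4 to 1.87 in culture 3.

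Flcn had ratios of 0.98, 0.85, 0.94 and 0.61 in mutant cultures, against 1.21, 1.31, 1.28 and 1.07 in controls. Fnip2 had -1.34, -0.98, -1.40 and -1.11 in mutant cultures, against -0.77, -0.66, -0.81 and -0.81 in controls. For both genes all mutant cultures were below all controls, as for 10.4% of tested genes. Gpnmb had -1.39, -1.67, -1.58 and -0.55 in mutant cultures and -1.18, -0.08, 0.08 and -0.43 in controls. Mutant culture 4 and control culture 1 were thus out of step with their groups. Mitf (-0.69 ± 0.29 in mutant, -0.90 ± 0.41 in control cultures) and Fnip1 (-1.10 ± 0.25 and -1.41 ± 0.39) lay under the median gene in every culture.

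**Figure D4:**
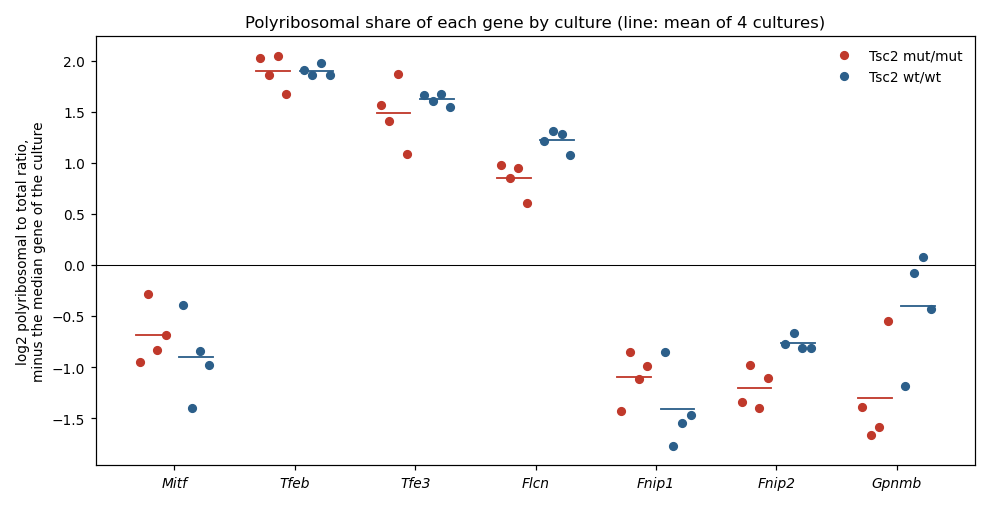
Log2 ratio of polyribosomal to total value minus that of the median gene of the culture (vertical), 1 point per culture, Tsc2 mut/mut left of Tsc2 wt/wt, with a line at the mean of 4 cultures. Tfeb and Tfe3 lay at 1.08 or above in every culture, and the genotypes were separate for Flcn and Fnip2.

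Ratios between related genes within a library need no scaling between libraries. The log2 ratio of Fnip2 over Fnip1 in total RNA was -0.04, 0.36, -0.02 and 0.03 in mutant cultures, against 0.90, 0.44, 0.48 and 0.65 in controls. In polyribosomal RNA it was 0.04, 0.24, -0.32 and -0.08 in mutant cultures, against 0.98, 1.55, 1.22 and 1.30 in controls. The genotypes were separate in both tables, and in mutant polyribosomal RNA the partners had about equal values (mean log2 ratio -0.03 ± 0.23) whereas controls had more Fnip2 (1.26 ± 0.23). In polyribosomal RNA the separation was fixed in advance. There every mutant culture was above all controls for Fnip1 and below all controls for Fnip2. The ratio of Mitf over Tfe3 in polyribosomal RNA was -6.05 ± 0.29 in mutant and -7.06 ± 0.11 in control cultures, again without overlap, and that of Mitf over Tfeb was -5.04 ± 0.12 and -5.61 ± 0.22. In total RNA both Mitf ratios overlapped between genotypes.

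**Figure D5:**
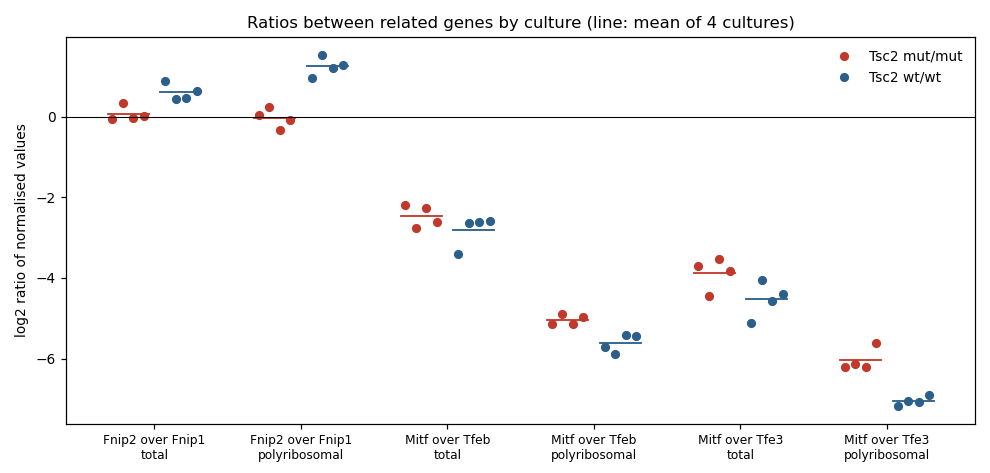
Log2 ratios of normalised values between related genes (vertical), 1 point per culture, Tsc2 mut/mut left of Tsc2 wt/wt, with a line at the mean of 4 cultures. Fnip2 over Fnip1 in polyribosomal RNA averaged -0.03 in mutant and 1.26 in control cultures.

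Levels can be set against each other between genes per kilobase of annotated exon (union of all transcripts). In mutant total RNA Gpnmb led with 1983 ± 795 per kb, followed by Flcn (839 ± 185), Tfe3 (608 ± 58.9), Tfeb (372 ± 55.9), Fnip1 (220 ± 28.7), Fnip2 (198 ± 16.7) and Mitf (64.1 ± 19.6; SD, n = 4). Neighbours whose cultures overlapped in that order were Flcn with Tfe3 and Fnip1 with Fnip2. In control total RNA Flcn (535 ± 30.4) and Tfe3 (511 ± 30.3) led and overlapped, Gpnmb (338 ± 98.3), Tfeb (256 ± 46.8) and Fnip2 (203 ± 7.92) followed with each overlapping the next, and Fnip1 (157 ± 21.9) and Mitf (33.9 ± 9.98) came last. Gpnmb was thus above the folliculin and factor genes in mutant total RNA and below Flcn and Tfe3 in controls.

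In polyribosomal RNA Gpnmb did not lead. The mutant order per kb was Tfe3 (1512 ± 436), Flcn (1326 ± 406), Tfeb (1211 ± 269), Gpnmb (687 ± 238), Fnip1 (88.4 ± 8.27), Fnip2 (74.3 ± 13.2) and Mitf (33.2 ± 4.88), in which Tfe3, Flcn and Tfeb overlapped, as did Fnip1 and Fnip2. The control order was Tfe3 (1380 ± 51.5), Flcn (1094 ± 35.0), Tfeb (834 ± 130.4), Gpnmb (223 ± 69.8), Fnip2 (105 ± 6.31), Fnip1 (51.8 ± 7.89) and Mitf (15.3 ± 0.90), with no overlap between neighbours. The places of Tfeb, Tfe3 and Flcn depend on length: per kb of the longest annotated transcript, Tfeb came first in mutant polyribosomal RNA (2932 ± 651) and overlapped Tfe3 in controls (2018 ± 316 and 2020 ± 75.3). Gpnmb and Flcn likewise overlapped in control total RNA on that measure (594 ± 173 and 648 ± 36.9). Mitf made up 1.11% to 1.46% of the per kb sum of the 3 factors in mutant and 0.636% to 0.768% in control polyribosomal RNA.

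Genes that the factors are known to activate were described from a list of 33 lysosomal targets. In total RNA 28 were higher in mutant cultures, against 19.7% of all genes, none was lower and 5 did not pass. The median log2 change was 0.47, against 0.01 over all genes. Ctsd, the aspartyl protease cathepsin D, averaged 73246 ± 5193 in mutant and 33927 ± 4482 in control cultures (log2 change 1.12 ± 0.11). Ctsa (0.96 ± 0.12) and Tpp1 (0.83 ± 0.11), also lysosomal proteases, rose as well. Atp6v0d2, a V-ATPase subunit gene of osteoclasts and macrophages, was at 283 ± 94.2 in mutant and 19.2 ± 4.10 in control cultures (log2 change 3.77 ± 0.28), and the limma adjusted p of these 4 genes ran from 0.000291 to 0.00254. In polyribosomal RNA 12 of the 33 were higher, against 11.7% of all genes, and none was lower (median 0.35, against 0.01 over all genes). Among the 12 were Ctsd (0.96 ± 0.15) and Ctsf (1.31 ± 0.24). With 1 culture left out, the polyribosomal count was 5 without control culture 1 or 2, 6 without control culture 4 or mutant culture 3, and 8 to 12 otherwise. The efficiency of 4 (12.1%) was lower, against 7.89% of all genes, among them Gaa (-0.65 ± 0.16), Sgsh (-0.61 ± 0.17) and Tpp1 (-0.50 ± 0.13). That count ranged over 0 to 8 with 1 culture left out, and with the microglial level as a covariate it was 0 and the median efficiency difference turned to 0.055 (-0.13 without the covariate). Without mutant cultures 2 and 4 the counts of higher genes were 27 in total and 15 in polyribosomal RNA, and with the Y-linked level in the model they were 9 and 0, with medians of 0.48 and 0.38.

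Of 12 autophagy targets, 5 were higher, against 19.7% of all genes, and 1 lower in mutant total RNA (median log2 change 0.32). The 5 became 2 without mutant culture 1, 3 without control culture 2, 3 or 4, and 1 with the Y-linked level in the model. Wipi1, which acts in phagophore formation, was at 3212 ± 895 in mutant and 1747 ± 164 in control cultures (0.84 ± 0.18, limma adjusted p = 0.00731), and Vps11 (0.38 ± 0.08) and Gabarap (0.36 ± 0.10) also rose. Atg9b, a paralog of the lipid scramblase gene Atg9a, went the other way at low values, 46.1 ± 5.57 in mutant and 74.2 ± 13.7 in control cultures, a call lost without mutant culture 4 or control culture 2. In polyribosomal RNA 3 were higher (Gabarap, Wipi1 and Map1lc3b, an LC3 gene), against 11.7% of all genes. Atg9b was lower, against 11.9% of all genes, and 8 did not pass. In either direction 33.3% of the list passed, against 23.6% of all genes. The 3 became 1 without control culture 3, 2 without control culture 1 or 2 or mutant culture 1 or 3, 5 without mutant culture 2 and 0 with the Y-linked level in the model.

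The Rag GTPases and the Ragulator complex form the platform on which folliculin acts. In total RNA 3 of these 10 genes were higher and 3 lower in mutant cultures, against 19.7% and 20.7% of all genes. The median change was -0.03, or 0.07 when scaled to library totals. Rragd, whose product is a folliculin substrate, was at 3866 ± 858 in mutant and 2440 ± 164 in control cultures (0.64 ± 0.14, limma adjusted p = 0.00754). Rragc, the other substrate gene, rose less (0.25 ± 0.07, limma adjusted p = 0.0258), and Slc38a9, the lysosomal arginine sensor gene, by 0.51 ± 0.13. The Rragc call was lost in 5 of the 8 fits without 1 culture (limma adjusted p up to 0.0747) and under a replicate block. The Ragulator genes Lamtor3 (-0.35 ± 0.07) and Lamtor5 (-0.37 ± 0.08) and the Rag gene Rragb (-0.26 ± 0.08) fell. With the Y-linked level in the model none of the 10 passed in either table. In polyribosomal RNA 4 of the 10 were higher, against 11.7% of all genes, and none lower: Rragd (0.48 ± 0.14), Lamtor4 (0.77 ± 0.17), Lamtor2 (0.53 ± 0.16) and Lamtor1 (0.54 ± 0.18), while Lamtor3 and Lamtor5 did not pass there. The 4 became 1 without mutant culture 1 or 3 or control culture 3 and under a replicate block, and 2 without control culture 1, 2 or 4. The Lamtor1 call was lost in 6 of the 8 fits without 1 culture, those of Lamtor2 and Rragd in 5 each and that of Lamtor4 in none. The efficiency was higher for Lamtor1 (0.61 ± 0.16), Lamtor2 (0.48 ± 0.15), Lamtor4 (0.76 ± 0.15) and Lamtor5 (0.86 ± 0.16), and for none of the 4 Rag genes. Of all 14333 genes tested, 727 were higher in efficiency. The 4 efficiency calls became 2 without mutant culture 1 or 3 or control culture 3. They became 0 under limma without trend or robust moderation, with the microglial level as a covariate and with no replicate block.

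Genes whose products modify or hold the factors and folliculin (14-3-3 proteins, calcineurin subunits, kinases, the exportin Xpo1 and others) were also listed. Together with the coactivator gene Ppargc1a, which is not one of that kind, the list held 21 genes. In total RNA 1 was higher, 8 were lower and 12 did not pass (median log2 change -0.19), while scaling to library totals gave 3 higher and 4 lower. The 8 of 21 lower stood against 20.7% of all genes. The 8 became 3 without control culture 2 or mutant culture 1, 4 without control culture 4 or mutant culture 3, 5 without control culture 3, and 1 with the Y-linked level in the model. The 14-3-3 gene Ywhah averaged 25535 ± 2669 in mutant and 35842 ± 1918 in control cultures (-0.49 ± 0.09, limma adjusted p = 0.00442), and Ywhaq fell by 0.45 ± 0.11 on the log2 scale. Ppp3cb, a catalytic subunit of calcineurin, the phosphatase that acts on TFEB, fell by 0.37 ± 0.08. The 1 rise was Ppargc1a, the coactivator gene PGC-1alpha, at 3747 ± 394 in mutant and 2211 ± 384 in control cultures (0.77 ± 0.14, limma adjusted p = 0.00392). In polyribosomal RNA 2 were higher, Ppargc1a (0.92 ± 0.12) and Ppp3ca (0.37 ± 0.12), and 2 lower, Ywhah (-0.43 ± 0.10) and Ywhag (-0.47 ± 0.13), 19.0% of the list against 23.6% of all genes in either direction. The Ppp3ca call was lost in 6 of the 8 fits without 1 culture (limma adjusted p up to 0.120). That of Ywhag was lost in 3 of the 8 and with scaling to library totals.

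Genes that mark lipid-laden phagocytes together with Gpnmb were also listed. In total RNA 8 of 14 tested were higher in mutant cultures, against 19.7% of all genes, and none was lower. The median change was 1.30, against 0.01 over all genes. Ctsk, a cathepsin gene of osteoclasts, was at 355 ± 93.7 in mutant and 98.5 ± 10.3 in control cultures (1.81 ± 0.19, limma adjusted p = 0.00131), and the cholesterol exporter genes Abca1 (1.67 ± 0.22) and Abcg1 (1.45 ± 0.18) and the galectin gene Lgals3 (1.83 ± 0.31) rose too. In polyribosomal RNA 3 of 12 tested were higher: Abca1 (1.33 ± 0.19), Ctsk (1.14 ± 0.34) and the lipoprotein gene Apoe (1.83 ± 0.31), 25.0% of the tested list against 11.7% of all genes. The Ctsk call in polyribosomal RNA was lost in 5 of the 8 fits without 1 culture, and the 3 became 5 without mutant culture 1, 6 without mutant culture 2 and 2 without mutant culture 4 or control culture 1, 2 or 3. With the Y-linked level in the model 4 of 14 were higher in total RNA and none of 12 in polyribosomal RNA. With the microglial level as a covariate, 7 of 14 in total and 7 of 12 in polyribosomal RNA were higher and none lower. Without mutant cultures 2 and 4, 7 were higher in total RNA, and 3 were higher and 2 lower in polyribosomal RNA.

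The genes whose pattern was most like each member were ranked by Pearson's r over the 16 libraries (log2 values minus the gene's mean in its table, 14333 genes). The libraries share genotype, culture and table, so r is a description. For Gpnmb the nearest were Clec4n, a C-type lectin gene of myeloid cells (r = 0.972), Dnase1l1 (0.961) and Frem1 (0.956). Flcn was nearest to the ubiquitin ligase gene Mgrn1 (0.979), the endosomal trafficking gene Tom1l2 (0.979) and the sorting nexin gene Snx33 (0.966). Fnip1 was nearest to Ankrd12 (0.982), Avl9 (0.969) and the deubiquitinase gene Usp32 (0.968), and Fnip2 to the glutamine transporter gene Slc38a1 (0.937), D630045J12Rik (0.918) and Tarbp1 (0.916). Tfeb was nearest to Trafd1 (0.974), Crybb3 (0.967) and the small heat shock protein gene Hspb8 (0.962), Tfe3 to the Rubicon gene Rubcn (0.952), Zfp212 (0.952) and Kdm4b (0.952), and Mitf to Lin7a (0.967), Mgst3 (0.950) and Pde1c (0.946).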

How the data were processed

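The authors trimmed reads, aligned them with STAR to mm10 and normalised with DESeq2, as the methods and the submitters' processing notes state. The read counter was not given in the sources used here, nor was its annotation. The values the authors deposited are a signal (counts scaled by size factors), with total and polyribosomal RNA in separate tables. Low values lay near whole multiples of 1 read for 82.1% to 89.3% of them in total and 61.9% to 91.2% in polyribosomal RNA, so whole reads were not recovered, no count model was used and depth is an estimate. Of 24972 rows, 26 with date-like names were left out.

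Tests on log2(value + 1) used limma 3.58.1 (R 4.3.3) with variance trend, robust moderation and Benjamini-Hochberg adjustment over all genes with a table mean of at least 10. This scale understates changes of low genes. Efficiency was the genotype by fraction interaction over 16 libraries with culture as a block, since the total and polyribosomal libraries of 1 culture carry 1 number in the labels (their deviations correlated at 0.233 to 0.731). Fits were tested on simulated data with known changes, drawn without a shared effect of culture. Such data do not test the culture block of the efficiency fit. The members, gene lists and tests were chosen with earlier results of these data known. Named genes are the members, Tfec, Tsc2 and the 3 most similar genes per member. Each pathway list gave up to 4 genes by smallest p in each of the total and polyribosomal RNA fits, and those against its majority. Each list of cell type markers gave up to 4 genes by highest mean value. Nes, Sox2, Siglech and the melanocyte genes below the 4 highest were named outside these rules. Rragb and the list genes given for efficiency were named after their values were seen. A few list genes are not reported here. Alternatives were other scalings, pseudocounts and filters, plain limma, covariates, a replicate block and left-out cultures. Gene positions are from GENCODE and promoter sequences from RefSeq.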

Additional observations from a re-analysis of the deposited data

Results flagged for a closer look

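Fnip2 in mutant culture 2 stood apart from the other mutant polyribosomal libraries at 786.5, with the remaining 3 between 554 and 580. It was the 1 library so marked among 28 groups of 4, and chance marks about 1 group in 20. The genotype change differed between polyribosomal and total RNA for Flcn (-0.40) and for Fnip2 (-0.47) by the test of the difference in the limma fit, with the limits given above.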

How the results depend on the processing

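The 7 genes kept the direction of every called change under all alternatives, and the number of calls moved. With scaling to library totals, which shifted the median log2 change of all genes to 0.11 in total and 0.13 in polyribosomal RNA (0.01 in both as deposited), total RNA had 3838 higher and 2263 lower calls (2944 and 3091 as deposited), polyribosomal RNA 2579 and 927 (1690 and 1713) and efficiency 920 and 946 (727 and 1131), and 1 of the 7 passed in efficiency. With Y-linked level as a covariate, 1063 genes passed in total RNA (1 of the 7), 30 in polyribosomal RNA (0 of the 7) and 2602 in efficiency. Without mutant cultures 2 and 4 polyribosomal RNA had 5402 calls, with all 7 among them. That fit kept mutant cultures 1 and 3 alone, and for Mitf, Tfeb, Tfe3 and Flcn the cultures left out held the lowest mutant values. In efficiency, limma without trend or robust moderation called 0 genes (3980 with an unadjusted p under 0.05), the microglial covariate 0 (2121) and the fit with no replicate block 0 (2221), and of the 7 each called 0, as did the fit with no filter on low values. With single cultures left out, calls ranged from 4195 to 6649 in total RNA (3 to 6 of the 7), from 1884 to 4087 in polyribosomal RNA (3 to 5) and from 649 to 3282 in efficiency (0 to 4).

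Same-numbered mutant and control cultures share a number and nothing else in the labels, and their deviations correlated at -0.11 to 0.13 in total and -0.13 to 0.06 in polyribosomal RNA. A replicate block left 4741 calls in total RNA (3 of the 7) and 2361 in polyribosomal RNA (3 of the 7). With 4 cultures a group, calls near the threshold, such as those of Tfe3, Tfeb in polyribosomal RNA, Flcn in efficiency and Fnip2, turned on single cultures. Depth is estimated and sets no interval here.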
